A study of Mus musculus with 40 samples.

Results

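Multipotent progenitors (MPPs) of mouse bone marrow labelled as Hira KO were compared by their division history, with 3 GFP-low libraries set against 3 GFP-high libraries, 6 of the 40 libraries of the series. The members were chosen by their labels: all libraries of Hira KO MPPs sorted as H2B-GFP Low, and all of Hira KO MPPs sorted as H2B-GFP High. Both groups came from C57BL/6 mice of genotype Mx1-Cre; Hira fl/fl; Rosa26-M2rtTA; TetOP-H2B-GFP. All mice of both groups drank water with 2 mg/ml doxycycline and 10 mg/ml sucrose for 6 weeks, then had 2 intraperitoneal doses of 20 μg poly(I:C), which turns on Mx1-Cre. The cells were taken 15 days after the last dose and 17 days after doxycycline ended. RNA with poly(A) tails was amplified with SMART-Seq2 and made into libraries with Nextera XT. For comparison, WT MPPs and KO HSCs sorted in the same 2 ways supplied 6 libraries each. The WT mice are labelled C57BL/6 and WT with no alleles named, and 1 protocol text, with the pulse, poly(I:C) and chase above, is attached to WT and KO samples alike. Mx1-Cre acts in many cell types that respond to interferon, and the labels give neither the ages and sexes of the mice, the surface gates of the sort, nor the GFP limits.

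A histone H2B fused to GFP is made only while doxycycline is present, and each division then shares the labelled histones between the daughters, so GFP-low cells divided more often in the chase than GFP-high (label-retaining) cells. MPPs stand just below hematopoietic stem cells (HSCs) and give rise to erythroid, megakaryocytic, myeloid and lymphoid progenitors. HIRA is the chaperone that deposits histone H3.3 outside of replication. The comparison asks which transcripts go with division history in progenitors labelled as Hira KO.

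Values are FPKM, reads per length of transcript and per library size, rescaled over the 6 libraries together. The libraries held 5865551 to 9020238 recovered reads on genes, and 10307 to 10688 genes reached an FPKM of 1. Hira stood at 1.25, 1.57 and 2.15 FPKM in the GFP-low libraries, against 1.90, 1.76 and 1.52 FPKM in the GFP-high libraries. In WT MPPs Hira ranged over 1.71 to 2.23 FPKM in GFP-low and over 1.20 to 1.87 FPKM in GFP-high libraries, so the KO and WT ranges overlapped. The value covers the whole gene and the labels do not name the deleted exons, so it does not check the deletion, and KO is used as labelled. The MPP markers Kit (122 to 147 FPKM in GFP-low, 134 to 156 FPKM in GFP-high), Ly6a (68.5 to 146 FPKM in GFP-low, 135 to 232 FPKM in GFP-high) and Cd34 (109 to 127 FPKM in GFP-low, 89.8 to 104 FPKM in GFP-high) were present throughout. The HSC marker Slamf1 was at most 0.822 FPKM in GFP-low and 0.355 FPKM in GFP-high libraries, below the level for testing.

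Replicate numbers tied the libraries together. Replicate 2 of both groups had Eif2s3y, a gene of the Y chromosome, at 16.5 FPKM in GFP-low and 14.5 FPKM in GFP-high, with Xist at 0.286 and 0.305 FPKM, while the other libraries of both groups had Xist at 30.1 FPKM or more. One library stood apart. On the first principal component (42.7% of the variance) the GFP-low libraries lay at 5.5, 5.4 and 33.7, against -23, -29 and 7.3 for the GFP-high libraries, so GFP-high replicate 3 lay among the GFP-low ones. The 10 mature neutrophil markers summed to 9812, 4898 and 3731 FPKM in GFP-low libraries, against 3825, 6152 and 23470 FPKM in GFP-high libraries, and replicate 3 was again the one apart. Values without it, from the unpaired fit, are given where it moved a called gene by over 1.5 times and beside most lists, and the part of neutrophil RNA was not tested. Among other cells, macrophage markers summed to 5.25 to 34.2 FPKM in GFP-low and 12.3 to 24.5 FPKM in GFP-high libraries, B cell markers to 25.3 to 37.3 FPKM in GFP-low and 39.2 to 46.8 FPKM in GFP-high libraries, and stroma markers to 14.8 to 22.3 FPKM in GFP-low and 18.3 to 21.3 FPKM in GFP-high libraries. T and NK cell markers, nearly all from Nkg7, summed to 117 to 119 FPKM in GFP-low and 45.5 to 123 FPKM in GFP-high libraries, and 1 of the 10, Gzma, was at 0 in all 6.

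Of 10708 genes tested, 0 (0.0%) passed limma's moderated test at an adjusted p of 0.05 when the groups were compared without pairs, although 1100 had an unadjusted p under 0.05 and the smallest adjusted p was 0.112. With the replicate number as a block, 231 passed: 160 (1.49%) were higher and 71 (0.663%) lower in GFP-low cells. Voom on the recovered reads with the same block called 147 of the 160 and 60 of the 71, and voom without the block called 0. Below, rose and fell are used of genes past the paired test, the limma fit with the replicate block. In data simulated with an assumed spread between animals and libraries, this paired fit called more unchanged genes than its threshold allows. The calls also lean on few libraries. The paired test called 4 genes (Atp1b2, Mfsd2b, Pklr and Prg2) when the variance was not fitted to the level of expression, and 1 gene (Prg2) without pair 2. Without GFP-high replicate 3 and without pairs, 113 genes passed (99 higher, 14 lower), and 66 of them were among the 231. Groups without any overlap were seen for 908 genes higher (8.48%) and 724 genes lower (6.76%) in GFP-low cells. These shares over all genes are the background for the list counts below. The GFP-low and GFP-high libraries were deposited in separate tables, so an effect of the table on a gene cannot be told apart from that of the group.

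**Figure D1:**
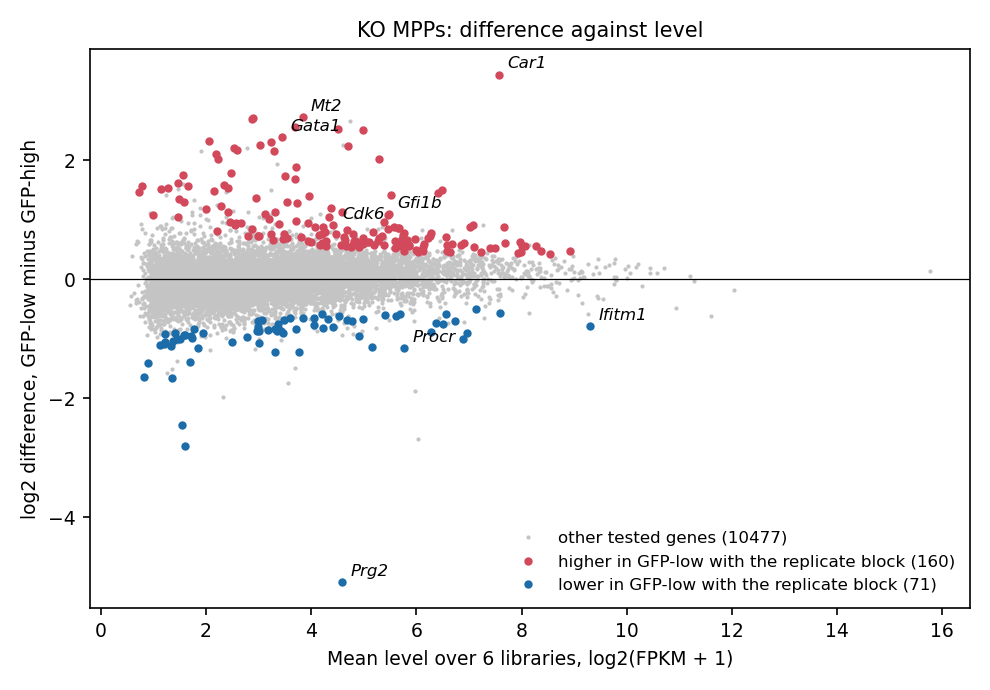
Log2 difference (GFP-low minus GFP-high, vertical axis) against the mean level over the 6 libraries, log2(FPKM + 1), for 10708 genes. Coloured points are the 160 genes higher and the 71 genes lower in GFP-low cells in the paired test; Prg2 lies at -5.10 and Car1 at 3.44.

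Erythroid genes were higher in GFP-low KO MPPs. Of 29 genes on an erythroid list 24 were tested: 11 rose, 0 fell, 21 had a higher mean in GFP-low cells and 14 had all GFP-low libraries above all GFP-high ones. Paired voom called 12 of the 24 higher and 1 lower. The median difference of the 24 was 1.08 on the log2 scale, against -0.00 for all genes. The rises took in the master regulators Gata1 and Klf1, the repressor Gfi1b, the erythropoietin receptor Epor, the carbonic anhydrase Car1, the water channel Aqp1, the blood group protein Rhd, the membrane protein Ermap, the transporters Tspo2 and Slc25a21, and Blvrb, an enzyme of heme breakdown. In bulk RNA, more cells of a type and more RNA per cell cannot be told apart.

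Promoters of 4 of these genes are printed because they moved together and hold a word of the GATA motif, the sequence that GATA1 binds. They span 250 bases before to 50 bases after the RefSeq start, 5′ to 3′ on the gene's strand, build GRCm38.p6, with the GATA word in capitals. Epor lies at chr9:21963527-21963826 (minus strand), Klf1 at chr8:84901732-84902031 (plus strand), Gfi1b at chr2:28621933-28622232 (minus strand) and Rhd at chr4:134864286-134864585 (plus strand).
Epor: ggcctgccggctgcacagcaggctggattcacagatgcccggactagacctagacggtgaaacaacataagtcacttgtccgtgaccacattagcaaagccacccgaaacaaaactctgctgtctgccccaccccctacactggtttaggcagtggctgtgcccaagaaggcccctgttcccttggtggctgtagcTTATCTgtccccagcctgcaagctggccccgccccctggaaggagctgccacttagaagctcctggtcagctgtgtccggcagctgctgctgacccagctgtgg
Klf1: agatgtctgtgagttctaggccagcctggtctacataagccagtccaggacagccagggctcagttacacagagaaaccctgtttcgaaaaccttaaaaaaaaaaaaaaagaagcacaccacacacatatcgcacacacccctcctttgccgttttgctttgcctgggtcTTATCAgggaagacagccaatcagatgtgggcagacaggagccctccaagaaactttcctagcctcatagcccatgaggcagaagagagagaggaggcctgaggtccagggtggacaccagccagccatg
Gfi1b: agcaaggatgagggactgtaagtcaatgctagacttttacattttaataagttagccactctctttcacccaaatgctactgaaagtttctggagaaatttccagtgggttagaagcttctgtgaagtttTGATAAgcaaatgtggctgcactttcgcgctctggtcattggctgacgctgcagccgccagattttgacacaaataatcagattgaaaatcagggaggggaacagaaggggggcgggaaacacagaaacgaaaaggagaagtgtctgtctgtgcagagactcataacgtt
Rhd: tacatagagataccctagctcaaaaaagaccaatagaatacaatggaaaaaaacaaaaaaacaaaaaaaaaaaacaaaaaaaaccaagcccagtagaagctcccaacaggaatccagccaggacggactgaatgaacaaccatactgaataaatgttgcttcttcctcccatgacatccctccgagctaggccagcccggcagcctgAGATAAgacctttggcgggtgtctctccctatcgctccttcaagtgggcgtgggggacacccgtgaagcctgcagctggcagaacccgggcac
The motif was searched on both strands as the word AGATAA, as its form with another first base, TGATAA, as its form with another last base, AGATAG, and as the form with both changes, TGATAG. One or more were found in 10 of the 18 tested erythroid genes with a promoter in the table (55.6%), against 1573 of 8614 promoters of all tested genes (18.3%). Of the erythroid genes that rose, 10 had a promoter and 5 of these a word; Gata1 itself had none in this window. A match describes the letters only.

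Gata1 had 19.9, 20.6 and 33.2 FPKM in GFP-low libraries, against 2.02, 2.10 and 10.6 FPKM in GFP-high libraries. The groups did not overlap, and replicate 3 was the highest library of both. The difference was 2.38 ± 0.25 on the log2(FPKM + 1) scale (SE of the paired fit), with an adjusted p of 0.0238 paired and 0.206 unpaired (limma), and 3.03 without GFP-high replicate 3. Klf1, which switches on globin and red cell membrane genes, had 48.2, 41.6 and 74.8 FPKM in GFP-low libraries, against 5.20, 3.87 and 27.2 FPKM in GFP-high libraries (difference 2.52 ± 0.32, paired adjusted p 0.0255, limma). The difference of Klf1 was 3.3 without GFP-high replicate 3 (unpaired adjusted p 0.00146, limma). Epor had 18.2, 18.9 and 23.2 FPKM in GFP-low libraries, against 1.98, 2.21 and 6.89 FPKM in GFP-high libraries (difference 2.31 ± 0.22, paired adjusted p 0.0202, limma). In each gene the GFP-high libraries 1 and 2 lay close together and the third well above them, yet below every GFP-low library.

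Gfi1b, a repressor needed for red cells and platelets, varied little within each group. It had 62.2, 60.9 and 70.8 FPKM in GFP-low libraries, against 27.6, 30.8 and 31.0 FPKM in GFP-high libraries (difference 1.09 ± 0.09, adjusted p 0.0137 paired and 0.112 unpaired, limma). Car1, among the first carbonic anhydrases of the red cell lineage, had 459, 517 and 1041 FPKM in GFP-low libraries, against 41.4, 20.3 and 216 FPKM in GFP-high libraries (difference 3.44 ± 0.38, paired adjusted p 0.0238, limma). The difference of 3.44 is the greatest rise among genes past the paired test with a mean log2(FPKM + 1) of 3 or more. Leaving out GFP-high replicate 3 gave differences of 4.39 for Car1, 3.28 for Aqp1 and 2.87 for Rhd.

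Other genes of the list did not separate the groups. Hba-a1, an alpha globin gene, had 358, 167 and 48.5 FPKM in GFP-low libraries, against 55.2, 114 and 276 FPKM in GFP-high libraries. Alas2, the first enzyme of heme synthesis in red cells, had 22.1, 9.38 and 1.05 FPKM in GFP-low libraries, against 0.930, 4.82 and 21.9 FPKM in GFP-high libraries, and Slc4a1, the band 3 anion exchanger, 12.4, 8.04 and 0.448 FPKM in GFP-low libraries, against 1.26, 3.32 and 12.8 FPKM in GFP-high libraries. The groups overlapped for these genes, which did not pass (paired adjusted p 0.898, 0.907 and 0.956, limma). They were highest in GFP-low replicate 1 and GFP-high replicate 3, the libraries that also held the most neutrophil RNA of their groups. Globin gene copies are nearly identical in sequence, so reads may be split between them. Tal1 (difference -0.03), Zfpm1 (0.00) and Nfe2 (-0.39), regulators shared with other lineages, did not pass. Without GFP-high replicate 3 the median over the list was 1.59 and 15 of its genes were higher past the unpaired test, and within pairs 1, 2 and 3 it was 2.09, 1.73 and 0.64.

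**Figure D2:**
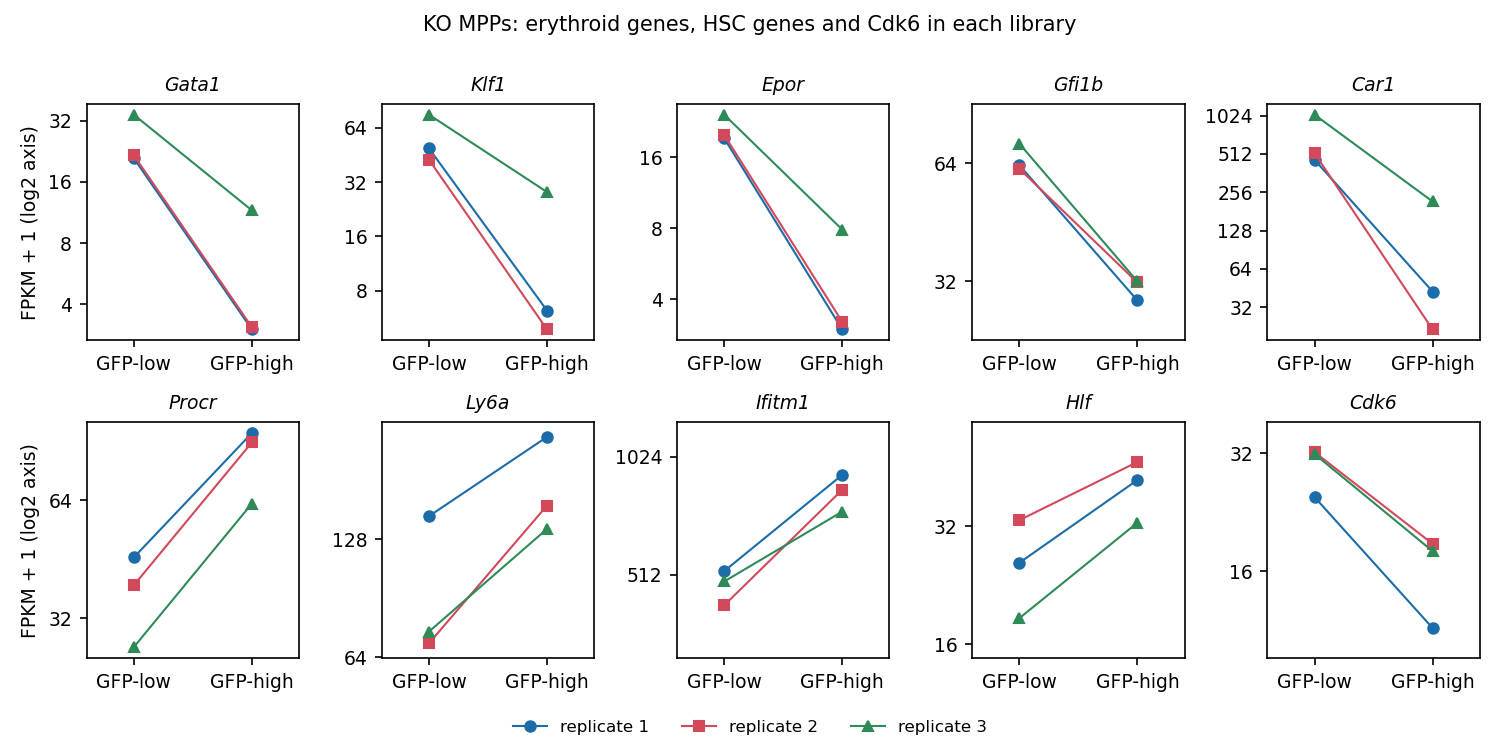
FPKM + 1 (log2 axis) of 5 erythroid genes, 4 HSC genes and Cdk6 in each library of GFP-low and GFP-high KO MPPs, with a line joining libraries of the same replicate number. The erythroid genes and Cdk6 are higher, and the HSC genes lower, at the GFP-low end of every line; GFP-high replicate 3 is the highest GFP-high library for Gata1 (10.6 FPKM) and Car1 (216 FPKM).

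Other genes with large rises came from outside the list. Mt2, a metallothionein that binds zinc and copper, had 23.3, 41.8 and 46.6 FPKM in GFP-low libraries, against 3.04, 2.59 and 10.9 FPKM in GFP-high libraries (difference 2.72 ± 0.27, paired adjusted p 0.0235, limma). The metallothionein Mt1 had 62.4, 64.5 and 115 FPKM in GFP-low libraries, against 16.0, 10.2 and 36.6 FPKM in GFP-high libraries (paired adjusted p 0.0137, limma); it was looked up after Mt2 was seen. The transcriptional coactivator Cited4 (difference 2.16), the amino acid transporter Slc38a5 (2.25) and the noncoding gene Gm15915 (2.56) also rose, each without overlap of the groups. The difference of Slc38a5 was 2.99 without GFP-high replicate 3. Atp1b2, Mfsd2b and Pklr, which passed also without the fit to expression level, differed by 2.33, 2.10 and 2.02. They code for a sodium pump subunit, a sphingosine-1-phosphate exporter of red cells and the pyruvate kinase of liver and red cells. These 3 were picked out after their values were seen.

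Aldh1a7, an aldehyde dehydrogenase, had 8.88, 12.3 and 13.5 FPKM in GFP-low libraries, against 0.822, 1.04 and 4.16 FPKM in GFP-high libraries (difference 2.21 ± 0.24, paired adjusted p 0.0238, limma). Its closest relatives share much of its sequence, so part of its reads could belong to another copy. Of 27 tested aldehyde dehydrogenase and glutathione genes 3 rose and 1 fell, with a median of 0.11. The rises besides Aldh1a7 were Gclm (0.75), the regulatory subunit of glutathione synthesis, and the transferase Gstm5 (0.85); the transferase Gstm1 fell (-0.50).

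HSC genes were lower in GFP-low KO MPPs. Of 40 genes enriched in stem cells 32 were tested: 7 fell and 0 rose, the mean was lower in GFP-low cells for all 32 tested, and 12 did not overlap. The median difference was -0.42, and -0.51 without GFP-high replicate 3, where 2 were lower past the unpaired test. The falls included Procr, Sult1a1, Ly6a, Ifitm1, Hlf and Ndn.

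Procr, the endothelial protein C receptor that marks stem cells in mice, had 44.8, 37.9 and 26.0 FPKM in GFP-low libraries, against 93.9, 88.8 and 61.7 FPKM in GFP-high libraries. All GFP-low libraries lay below all GFP-high libraries, and each pair showed the fall (difference -1.16 ± 0.09, adjusted p 0.0107 paired and 0.206 unpaired, limma). Ly6a, which codes for Sca-1, had 146, 68.5 and 73.5 FPKM in GFP-low libraries, against 232, 155 and 135 FPKM in GFP-high libraries. Here replicate 1 was highest in both groups, so the groups overlapped while each pair fell (difference -0.90 ± 0.11, adjusted p 0.0239 paired and 0.388 unpaired, limma). Sca-1 is commonly used to gate these cells, and the labels do not say whether it was.

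Ifitm1, an interferon-induced membrane protein abundant in stem cells, had 523, 428 and 492 FPKM in GFP-low libraries, against 920, 843 and 742 FPKM in GFP-high libraries (difference -0.79 ± 0.09, paired adjusted p 0.0238, limma). The transcription factor Hlf (-0.67), the imprinted growth suppressor Ndn (-0.65) and the sulfotransferase Sult1a1 (-1.08) also fell. Mecom, a stem cell transcription factor, had 2.84, 4.21 and 3.05 FPKM in GFP-low libraries, against 5.68, 4.58 and 4.23 FPKM in GFP-high libraries, and did not pass (paired adjusted p 0.241, limma). Gata2 (-0.04) and Cd81 (-0.12) were among those that differed least.

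Further genes that fell without overlap were Gas6 (-1.23), a ligand of TAM receptors, Pygm (-1.22), a glycogen phosphorylase, Gimap3 (-1.39), a GTPase of lymphocytes, Pcp4l1 (-0.96), Wfdc2 (-0.90), Tnip3 (-0.87), Abcg3 (-0.86), Tmem50b (-0.88) and Cish (-0.85), a feedback inhibitor of cytokine receptors. Of 22 tested CDK inhibitor and quiescence genes, 2 fell and 0 rose, with a median of -0.22. These were Ndn and Txnip, a regulator of glucose uptake (-0.57). Cdkn1c, the cell cycle inhibitor p57, had 1.38, 4.35 and 1.32 FPKM in GFP-low libraries, against 4.998, 2.60 and 2.84 FPKM in GFP-high libraries. Its groups overlapped and it did not pass (paired adjusted p 0.465, limma). Of 11 tested imprinted genes of quiescence, 1 fell (Ndn) and the median was -0.24.

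The steepest fall was in eosinophil granule genes. Prg2, major basic protein, had 5.03, 0.510 and 6.64 FPKM in GFP-low libraries, against 172, 66.4 and 238 FPKM in GFP-high libraries. No GFP-low library came near any GFP-high one, with a difference of -5.10 ± 0.14 (adjusted p 9.01e-05 paired and 0.112 unpaired, limma). It passed in all 10 fits that used the block, with adjusted p between 1.54e-06 and 0.0168. Its relative Prg3 had 0, 0 and 0.533 FPKM in GFP-low libraries, against 10.2, 2.55 and 12.3 FPKM in GFP-high libraries. Epx, eosinophil peroxidase, had 0, 0 and 0.924 FPKM in GFP-low libraries, against 3.00, 3.21 and 17.8 FPKM in GFP-high libraries. Both fell (paired adjusted p 0.0238 each, limma). Prg2 and Epx are on the mast cell, basophil and eosinophil list, and Prg3 is not. Of the 15 genes of that list 6 were tested, Prg2 and Epx fell, and the median was -0.26. Mcpt8, a basophil protease, had 37.2, 1.82 and 0.845 FPKM in GFP-low libraries, against 1.25, 3.15 and 1.66 FPKM in GFP-high libraries, which is 1 high library. The whole list of 15 summed to 325, 212 and 190 FPKM in GFP-low libraries, against 372, 301 and 511 FPKM in GFP-high libraries.

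Granulocyte genes did not separate the groups. Mpo, myeloperoxidase, had 480, 58.6 and 87.0 FPKM in GFP-low libraries, against 111, 160 and 356 FPKM in GFP-high libraries, and Elane, neutrophil elastase, 229, 18.8 and 2.74 FPKM in GFP-low libraries, against 108, 140 and 293 FPKM in GFP-high libraries. Both genes were high in GFP-low replicate 1 and GFP-high replicate 3 and did not pass (paired adjusted p 0.767 and 0.261, limma). Over 25 tested genes of granulocyte-monocyte progenitors 0 rose and 1 fell (Gstm1), with a median of -0.43, medians of 1.07, -0.69 and -1.41 within pairs 1, 2 and 3, and -0.15 without GFP-high replicate 3. The 10 mature neutrophil genes had a median of -0.44, with 1.30, -0.27 and -2.44 within the pairs and 0.27 without GFP-high replicate 3, and 0 passed. S100a8, a calcium-binding protein of neutrophils, had 4497, 2172 and 1599 FPKM in GFP-low libraries, against 1664, 3039 and 11030 FPKM in GFP-high libraries.

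**Figure D3:**
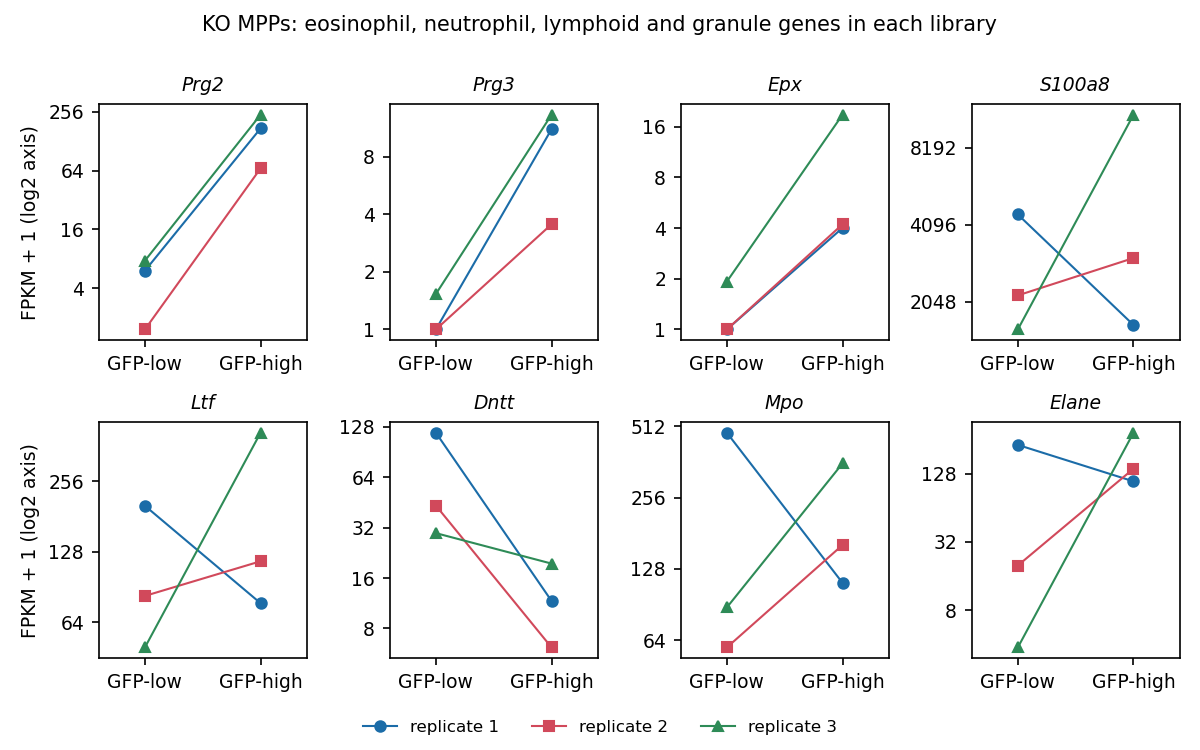
FPKM + 1 (log2 axis) of eosinophil (Prg2, Prg3, Epx), neutrophil (S100a8, Ltf), lymphoid (Dntt) and primary granule genes (Mpo, Elane) in GFP-low and GFP-high KO MPPs, joined by replicate number. The eosinophil genes are lower at the GFP-low end of all 3 lines, while the lines of the neutrophil and granule genes cross: S100a8 was highest in GFP-high replicate 3.

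No lymphoid gene on the list passed in limma, and Dntt had the largest difference. Dntt, which adds bases at antigen receptor joints and marks lymphoid priming, had 117, 42.4 and 28.7 FPKM in GFP-low libraries, against 10.7, 5.17 and 18.5 FPKM in GFP-high libraries. The groups did not overlap, with a difference of 2.25 ± 0.47 that missed the threshold (paired adjusted p 0.0662, limma). Of 17 tested MPP and lymphoid genes 0 passed in limma and 1, Dntt, in paired voom, and the median was 0.17, or 0.045 without GFP-high replicate 3. Flt3, the receptor of lymphoid-primed MPPs, had 39.6, 31.4 and 18.7 FPKM in GFP-low libraries, against 31.3, 44.3 and 22.4 FPKM in GFP-high libraries, and overlapped. Cd48, a marker of committed progenitors, had 26.0, 6.11 and 14.0 FPKM in GFP-low libraries, against 7.29, 6.11 and 11.5 FPKM in GFP-high libraries, and did not pass (paired adjusted p 0.294, limma). Cd34 was higher in every GFP-low library than in every GFP-high one (difference 0.31, paired adjusted p 0.139, limma).

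Among 20 tested megakaryocyte and platelet genes 2 rose and 1 fell. The rises were Gata1, which also serves platelets, and the integrin Itga2b, which had 8.18, 18.8 and 8.92 FPKM in GFP-low libraries, against 5.10, 10.9 and 5.38 FPKM in GFP-high libraries (difference 0.65 ± 0.12, paired adjusted p 0.0492, limma). The median of the list was -0.13, with 7 higher and 13 lower means in GFP-low cells.

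Cell cycle genes were mostly higher in GFP-low cells, by modest amounts. Of 50 DNA replication genes, 49 had a higher mean, 19 did not overlap and 8 rose, with a median of 0.48, and 0 fell. Without GFP-high replicate 3 the median was 0.60 and 3 were higher past the unpaired test. The 8 were the ribonucleotide and thymidylate enzymes Rrm1 (0.71), Tyms (0.63) and Dut (0.70), the helicase subunit Mcm5 (0.64), the origin subunit Orc6 (0.58), the clamp loader subunit Rfc4 (0.63), the single-strand binding subunit Rpa3 (0.62) and the flap endonuclease Fen1 (0.64). Mcm5 had 59.0, 51.9 and 67.1 FPKM in GFP-low libraries, against 36.9, 30.4 and 46.6 FPKM in GFP-high libraries. Cdc45 (0.77) and Gins2 (0.75), partners of the replicative helicase, missed the threshold (paired adjusted p 0.0575 and 0.0569, limma).

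Of 55 mitosis genes 52 had a higher mean in GFP-low cells and 12 did not overlap, but 0 passed in limma with or without the block. Paired voom called 8 of them higher, Plk1 and Kif22 among them (adjusted p 0.0291 and 0.0324, voom). Without GFP-high replicate 3, 12 of 52 were higher past the unpaired test, and the median was 0.74, against 0.46 with it. Plk1, a mitotic kinase, had 23.6, 24.0 and 28.4 FPKM in GFP-low libraries, against 7.03, 10.4 and 19.4 FPKM in GFP-high libraries (difference 1.10 ± 0.20, paired adjusted p 0.0509, limma), and without GFP-high replicate 3 the difference was 1.46 (unpaired adjusted p 0.0153, limma). Mki67, a gene of cycling cells, had 4.48, 3.55 and 4.02 FPKM in GFP-low libraries, against 1.83, 2.84 and 5.69 FPKM in GFP-high libraries. GFP-high replicate 3 was the highest of all 6, and the gene did not pass (paired adjusted p 0.616, limma). The median of the list was 0.81, 0.62 and 0.07 within pairs 1, 2 and 3. The letters TTTGAA, the CHR element of mitotic promoters, searched on both strands, stood in 34 of 46 promoters of these genes (73.9%), against 1048 of 8614 (12.2%) over all tested genes and 5 of 40 (12.5%) in the replication genes.

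Of 18 G1 cyclins, kinases and their partners, 3 rose and 0 fell. Cdk6, a kinase that sets how readily stem cells leave quiescence, had 23.7, 31.2 and 30.8 FPKM in GFP-low libraries, against 10.5, 17.8 and 17.0 FPKM in GFP-high libraries. The groups did not overlap, and the difference was 0.90 ± 0.11 (adjusted p 0.0248 paired and 0.274 unpaired, limma). Cks1b, a kinase subunit, differed by 0.87 and E2f4, a repressor of cell cycle genes, by 0.74. Ccnd1, cyclin D1, had 2.97, 5.56 and 4.51 FPKM in GFP-low libraries, against 4.46, 6.06 and 6.25 FPKM in GFP-high libraries, and did not pass (paired adjusted p 0.268, limma).

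Genes of growth and respiration were slightly higher. Of 46 ribosome biogenesis and Myc target genes 45 had a higher mean in GFP-low cells, 13 did not overlap and 7 rose, with a median of 0.35; without GFP-high replicate 3 the median was 0.495 and 1 was higher past the unpaired test. Srm, spermidine synthase, had 96.8, 67.9 and 151 FPKM in GFP-low libraries, against 67.5, 39.6 and 73.5 FPKM in GFP-high libraries (difference 0.77 ± 0.11, paired adjusted p 0.0361, limma). The others were Hspe1 (0.72), Mrto4 (0.66), Nhp2 (0.58), Nolc1 (0.58), Pa2g4 (0.57) and Npm1 (0.55). Of 80 tested oxidative phosphorylation genes, 79 had a higher mean, 24 were higher without overlap and 9 rose, with a median of 0.32 and medians of 0.33, 0.30 and 0.33 within the pairs. Their median was 0.41 without GFP-high replicate 3, where 0 passed the unpaired test. Ndufs6, a subunit of complex I, had 121, 111 and 148 FPKM in GFP-low libraries, against 83.8, 70.4 and 96.7 FPKM in GFP-high libraries (difference 0.59 ± 0.08, paired adjusted p 0.0283, limma). Glycolysis genes had a median of 0.02 over 25, with 1 rise (Slc16a1, a lactate transporter) and 1 fall (Ldhb). The 84 cytosolic ribosomal protein genes had a median of 0.12, or 0.040 without GFP-high replicate 3. Of these genes 1 rose (Rps27l, 0.56), beside 1.49% of all tested genes.

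**Figure D4:**
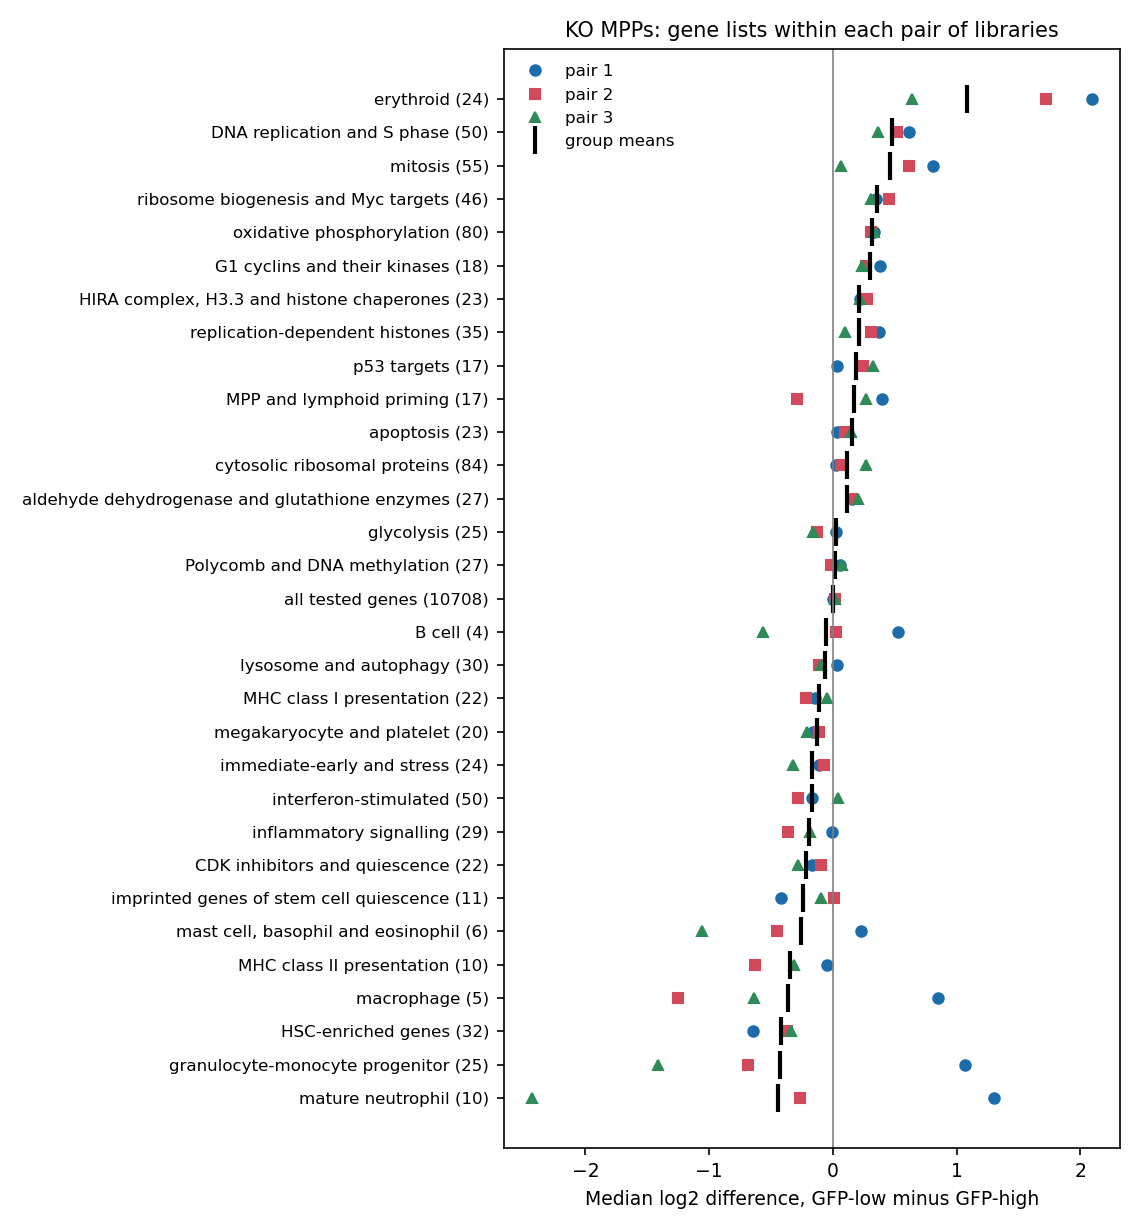
Median log2 difference, GFP-low minus GFP-high, over the tested genes of each list (their number in brackets), within each pair of libraries and between the group means (black bar). Erythroid, replication, biogenesis and oxidative phosphorylation lists lie right of 0 in every pair and HSC genes left of it, while neutrophil and granulocyte-monocyte lists spread from 1.30 to -2.44 and from 1.07 to -1.41.

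Most histone and chaperone genes had slightly higher means in GFP-low cells. Of 23 HIRA complex, H3.3 and histone chaperone genes 22 had a higher mean in GFP-low cells and 6 did not overlap, with a median of 0.21, and 1 rose (Npm1, a histone chaperone of the nucleolus). Over all tested genes 8.48% were higher without overlap and 1.49% rose. Mcm2, a helicase subunit that also holds histones, had 56.7, 45.1 and 57.0 FPKM in GFP-low libraries, against 25.2, 29.7 and 44.0 FPKM in GFP-high libraries, and missed the threshold (paired adjusted p 0.0716, limma). Of 64 replication-dependent histone genes 35 were tested, with 2 rises (H4c9, 0.72, and H2bc4, 0.69) and a median of 0.21. Most of these transcripts lack poly(A) tails and nearly identical copies share reads, so their levels are uncertain. Among 27 Polycomb and DNA methylation genes 0 passed in limma and 1 in paired voom; Bmi1 (-0.41) and Dnmt1 (0.39) had the smallest p.

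Interferon and immune genes mostly had lower means in GFP-low cells, and few passed. Of 50 tested interferon-stimulated genes 41 had a lower mean in GFP-low cells, 7 were lower without overlap, and 0 passed in limma and 3 in paired voom, with a median of -0.17. Oasl1, an antiviral protein, ran the other way at 6.18, 5.57 and 9.44 FPKM in GFP-low libraries, against 2.91, 3.51 and 4.19 FPKM in GFP-high libraries (difference 0.81, paired adjusted p 0.0537, limma). Of 10 tested MHC class II genes 2 fell, Cd74 (-1.14), the invariant chain, and H2-Aa (-0.81), and the median was -0.35. Of 29 inflammatory genes 0 passed in limma and 3 in paired voom, with a median of -0.19; the chemokine Ccl3 had 26.9, 16.0 and 14.1 FPKM in GFP-low libraries, against 30.7, 34.9 and 34.4 FPKM in GFP-high libraries (paired adjusted p 0.0882, limma). MHC class I genes had a median of -0.12, with 0 of 22 past the test in limma and 1 in paired voom.

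Jun, a component of the AP-1 factor, was the 1 of 24 tested immediate-early genes that fell. It had 5.24, 8.14 and 6.24 FPKM in GFP-low libraries, against 8.44, 16.3 and 13.7 FPKM in GFP-high libraries (difference -0.85 ± 0.13, paired adjusted p 0.0388, limma). Of 17 tested p53 targets 1 rose: Phlda3, a repressor of Akt, had 2.70, 2.19 and 4.27 FPKM in GFP-low libraries, against 0.746, 0.518 and 1.69 FPKM in GFP-high libraries. The 30 lysosome and autophagy genes had 0 past the test in limma and in paired voom and a median of -0.06.

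Genes with few reads gave part of the large differences. Snora62, a small nucleolar RNA gene, was at 1.49, 2.87 and 1.70 FPKM in GFP-low libraries and listed at 0 in all GFP-high libraries, with no more than 4 reads in any library. Mir3473e was listed at 0 in all GFP-low libraries and at 1.62, 1.63 and 3.42 FPKM in GFP-high libraries, with no more than 5 reads. Both are among the paired calls counted above (adjusted p 0.0269 and 0.0291, limma), but paired voom did not call them (adjusted p 0.129 and 0.162, voom). Mir7001, with no more than 2 reads, also passed the paired test (adjusted p 0.0258, limma) and not paired voom (adjusted p 0.293, voom). Such short genes turn single reads into an FPKM above 1.

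Whether division history acted differently in KO than in WT MPPs was tested as the difference of the 2 effects. Xist ranged over 30.05 to 33.87 FPKM in GFP-low and over 30.5 to 43.72 FPKM in GFP-high WT MPPs. No WT MPP library had the low Xist of KO replicate 2, so sex may be unbalanced between the genotypes, which was not tested. Of 11227 genes 1 passed (0.00891%), Mir7001, which rests on 0 to 2 reads in each library, and 313 had an unadjusted p under 0.05. With the replicate block 0 passed, and the gene had an adjusted p of 0.0503 (limma). Across the 10427 genes with a value in both, the effects had a Pearson correlation of 0.55 across genes, which are not independent and share their pairs of tables. Of the 221 genes past the paired test in KO MPPs with a WT value, 212 had the same sign in WT MPPs. That share was not counted over all genes, and it too rests on the shared tables.

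The erythroid list had a median of 1.08 in KO MPPs and 0.67 in WT MPPs, and 0 of its genes passed the test of the difference. Gata1 in WT MPPs had 9.17, 6.39 and 6.04 FPKM in GFP-low libraries, against 3.83, 1.29 and 3.78 FPKM in GFP-high libraries, an effect of 1.11. The KO effect exceeded the WT effect by 1.28 (95% interval -0.11 to 2.66, unadjusted p 0.0684, adjusted p 0.999, limma). For Epor the excess was 1.43 (95% interval 0.32 to 2.54, adjusted p 0.999, limma), and for Klf1 it was 1.29 (95% interval -0.49 to 3.06). These intervals come from the unpaired fit, where those for Gata1 and Klf1 hold 0. With the replicate block the unadjusted p was 0.00863 for Gata1, 0.00316 for Epor and 0.0168 for Klf1 (adjusted p 0.650, 0.522 and 0.695, limma).

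The HSC list had a median of -0.42 in KO MPPs and -0.29 in WT MPPs, and the replication list 0.48 in KO and 0.36 in WT MPPs. For Procr the KO effect was lower than the WT effect by -0.41 (unpaired 95% interval -0.97 to 0.16, adjusted p 0.999, limma). With the replicate block the unadjusted p for Procr was 0.00584 (adjusted p 0.612, limma). For Cdk6 the effects were 0.90 in KO and 0.99 in WT MPPs. Granulocyte-monocyte genes had medians of -0.43 in KO MPPs, or -0.15 without GFP-high replicate 3, and 0.27 in WT MPPs. The difference for Elane was -3.23 (95% interval -6.52 to 0.06). Prg2 in WT MPPs had 1.57, 86.1 and 0.110 FPKM in GFP-low libraries, against 11.5, 58.4 and 258 FPKM in GFP-high libraries. Its WT groups overlapped, and WT replicate 2 was higher in GFP-low. The KO effect of Prg2 differed from the WT effect by -1.90 (95% interval -6.19 to 2.38, adjusted p 0.999, limma). In the paired fit the unadjusted p of this difference was 0.288 (adjusted p 0.855, limma). Aldh1a7 in WT MPPs had 2.77, 1.20 and 0.762 FPKM in GFP-low libraries, against 1.69, 0.974 and 1.43 FPKM in GFP-high libraries, with an effect of 0.06. Its KO effect was greater by 2.15 (95% interval 1.04 to 3.26, unadjusted p 0.0011, adjusted p 0.999, limma). The paired fit gave this difference an unadjusted p of 0.000195 (adjusted p 0.329, limma). Bex4 had 21.1, 21.7 and 30.6 FPKM in GFP-low KO libraries, against 9.08, 6.32 and 10.9 FPKM in GFP-high KO libraries. Its effect was 1.39 in KO and 0.12 in WT MPPs (difference 1.27, 95% interval 0.53 to 2.01, adjusted p 0.999, limma). For this difference the paired fit gave an unadjusted p of 0.00142 (adjusted p 0.457, limma).

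**Figure D5:**
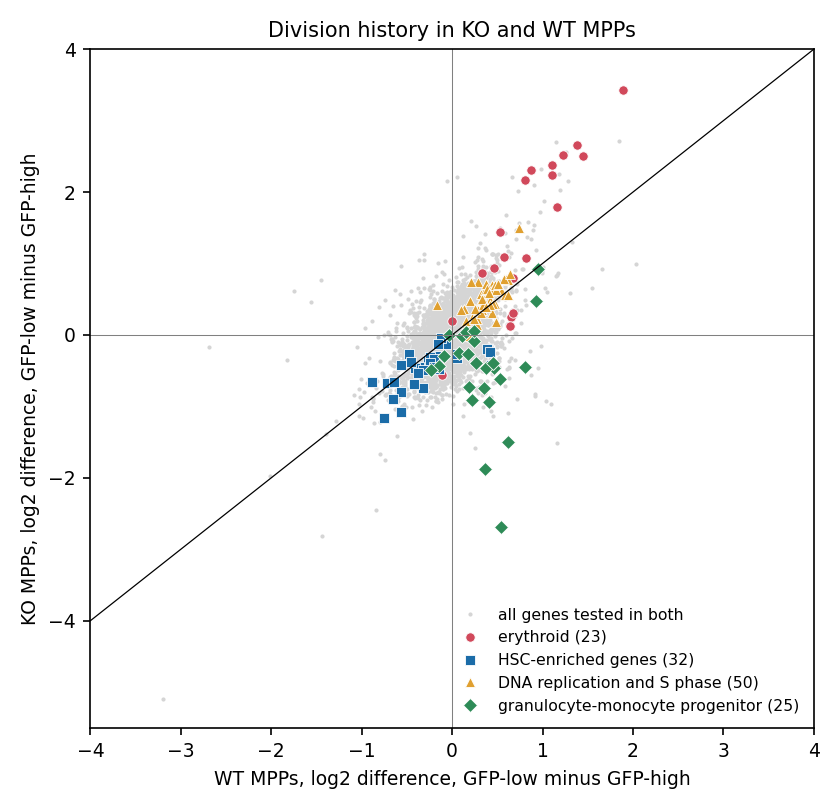
Log2 difference, GFP-low minus GFP-high, in KO MPPs (vertical axis) against the same in WT MPPs (horizontal axis), for all genes tested in both and for 4 lists; the line marks equal effects. Erythroid genes with an effect above 1 in KO MPPs lie above the line, HSC and replication genes lie near it, and granulocyte-monocyte genes lie mostly below it.

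Set against KO HSCs, 0 of 11333 genes (0.0%) passed the test of the difference, in limma with and without the block and in voom, and 337 had an unadjusted p under 0.05. The groups stand in 4 separate tables, so a gene effect of a table does not cancel. Xist was 0.398 FPKM in GFP-low and 0.235 FPKM in GFP-high replicate 2 of KO HSCs, near the values of KO MPP replicate 2. The labels do not say whether HSC and MPP libraries of the same number share an animal, and the fits did not link them. The medians in KO MPPs were 1.08 for erythroid, -0.42 for HSC-enriched, 0.48 for replication and 0.46 for mitosis genes, beside 0.66, -0.43, 0.53 and 0.69 in KO HSCs. The smallest p belonged to Pf4, platelet factor 4, Tuba8, a tubulin, and Fkbp1b, a binding protein of calcium channels. Pf4 had 52.0, 29.0 and 13.2 FPKM in GFP-low KO MPPs, against 31.2, 68.8 and 53.6 FPKM in GFP-high KO MPPs, while KO HSCs had 323, 208 and 289 FPKM in GFP-low, against 46.0, 76.3 and 31.8 FPKM in GFP-high libraries. The difference of effects was -3.28 (95% interval -4.62 to -1.93, adjusted p 0.934, limma). Prg2 had effects of -5.10 in KO MPPs and -5.55 in KO HSCs on the log2 scale, with a difference of 0.46 (95% interval -2.71 to 3.62).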

How the data were processed

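FPKM values per gene were deposited by the authors, in a separate table for each GFP group and cell type; STAR, DESeq2, HOMER and mm10 are named per the submitters' processing notes, with no step or version tied to these files. Each deposited table may already have been scaled within itself. The factors below lay at 0.999 to 1.0027 for GFP-low libraries and at 1.0131 to 1.0208 for GFP-high libraries. The KO columns of both tables were joined by gene identifier (15659 genes in both) and rescaled by the median of ratios over 12648 genes above 0 in all 6, with factors of 0.999 to 1.0208. Genes with FPKM of 1 or more in at least 3 libraries were tested by limma 3.58.1 (R 4.3.3) on log2(FPKM + 1), two-sided, with the variance fitted to expression level and Benjamini-Hochberg adjustment over all tested genes at 0.05. The log2 scale understates the changes of low genes. Whole reads were recovered for 99.994% of 18006 genes (within 0.01 of a whole number) over 24 libraries and gave the depth; edgeR was not run because the deposited unit is FPKM. In the unpaired fits, intervals and p-values measure the spread between libraries labelled as biological replicates. In the paired fits, SEs and p-values measure the spread of the differences within same-numbered pairs. The intervals given for differences of effects come from the unpaired fits.

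Same-numbered libraries deviated together: the correlations of their deviations from the group means were 0.155, 0.392 and 0.314, against -0.302 to -0.056 for different numbers (10708 genes). That pairing comes from the data and the sex-linked genes, not from the labels.

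The members and gene lists were chosen with earlier results of these data known. The rule for named genes took at most 10 in each direction that passed without overlap at a mean log2 level of 3 or more, the 2 of smallest p in every list, fixed markers, and the leading genes of each difference of effects; with none past the test, the 8 of smallest p each way were added, and the first part was also applied to the paired fit after the data were seen. Alternatives were other pseudocounts, filters, scalings, quality weights, voom, the replicate block, a joint fit of 12 libraries, and leaving out each library. Promoters came from RefSeq tables of build GRCm38.p6; 8614 of 10708 tested genes had one. Analyses used Python 3.11.15, numpy 2.4.6, pandas 2.3.3 and matplotlib 3.10.9. Some genes are not reported here.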

Additional observations from a re-analysis of the deposited data

Results flagged for a closer look

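The GFP-low against GFP-high effect of Mir7001 (chromosome 2, 93421929 to 93422007, build mm10) differed between KO and WT MPPs by 2.43 ± 0.23 on the log2(FPKM + 1) scale (SE, adjusted p 0.00123, limma interaction test). KO MPPs had 1.87, 1.35 and 2.14 FPKM in GFP-low libraries, against 0 in all GFP-high libraries, while WT MPPs had 0 in all GFP-low libraries, against 0.833, 1.02 and 1.01 FPKM in GFP-high libraries. These values stand on 2, 1 and 2 reads in the GFP-low KO libraries and 1 read in each GFP-high WT library. With the replicate block the adjusted p was 0.0503 (limma).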

How the results depend on the processing

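For GFP-low against GFP-high KO MPPs, 0 genes passed under the other pseudocounts, filters and scalings, without the expression trend, and by voom. Library quality weights gave 48 genes, a joint fit of the 12 MPP libraries 90 and the replicate block 231. Leaving out 1 library gave 0 to 113 genes, with 113 without GFP-high replicate 3. With the replicate block, settings added after seeing the data gave 124 genes (pseudocount 0.1), 165 (values as deposited), 184 (one total), 4 (no expression trend), 476 (FPKM of 5 or more), 469 (voom), and 189, 1 and 311 without pairs 1, 2 and 3. Without the block, leaving out pair 1, 2 or 3 gave 0, 1 and 58. Higher genes made up 69.3% of calls with the block, 58.2% when rescaled to one total and 57.1% by voom.

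For KO minus WT MPPs, 1 gene passed, 0 with the FPKM filter of 5, by voom or with the replicate block, and 1 to 2 when 1 library was left out (2, Mir7001 and Mir103-2, without KO GFP-high replicate 1). For KO MPPs minus KO HSCs, 0 passed in every setting run, the block included. Of 2921 values of named genes under alternatives 26 had the other sign (9 genes), as had 32 of 657 list medians (8 lists). The causes were not tested. Low counts limit short RNA genes.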
